A study of Mus musculus with 6 samples.

Results

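RNA of 9 genes that build and tune the actin cytoskeleton was examined in sorted mouse thymic tuft cells. They were the beta-thymosins Tmsb10 and Tmsb4x, the villin family genes Avil and Vil1, the microvillus genes Espn, Ezr, Fscn1 and Pls1, and the cytoplasmic actin gene Actb. The 9 were taken by symbol from a table of 55471 genes, and all of them passed the minimum used for testing, a mean of at least 10 normalized counts over the 6 libraries. The list was drawn up with the difference between the genotypes already known, Tmsb10 leading it, so the members were in effect chosen by their normalized counts in this contrast, which is described for the 9 genes without a p-value.

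Thymic tuft cells are chemosensory epithelial cells of the medulla, here sorted on the surface protein L1CAM. Both groups carried Ikzf1fl/fl, floxed alleles of the gene for the zinc finger factor Ikaros, and differed in Foxn1-Cre, a recombinase driven by a promoter active in thymic epithelium. The 3 Foxn1-Cre (-) samples have the genotype label WT and the 3 Foxn1-Cre (+) samples the label KO. No source used here gives the age or sex of the mice. Columns of the expression table carry the names Het1, Het2, Het3, Ko1, Ko2 and Ko3, and values given in threes follow that order. Ko was read as the Cre-positive group and Het, a word no label uses, as the Cre-negative group by elimination.

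Tuft cells are named for a tuft of long, stiff apical microvilli. In a microvillus, actin filaments are held in a parallel bundle by cross-linkers such as villin, espin, plastin and fascin, and ezrin ties the bundle to the membrane. Beta-thymosins are small proteins that bind single actin subunits and hold a reserve of them out of filaments. Advillin, the product of Avil, is a villin relative with strong expression in tuft cells.

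The sequences of the thymosin pair are shown because the results turn on how differently these relatives behaved, and because similar genes can lose reads to each other. Both proteins are encoded by 135 bases, stop codon included. In the GENCODE vM21 transcripts (GRCm38, minus strand for both genes, chromosome 6 for Tmsb10 and X for Tmsb4x), 95 of the 135 positions were identical, or 70.4%. Capitals mark the 40 positions that differ.
Tmsb10: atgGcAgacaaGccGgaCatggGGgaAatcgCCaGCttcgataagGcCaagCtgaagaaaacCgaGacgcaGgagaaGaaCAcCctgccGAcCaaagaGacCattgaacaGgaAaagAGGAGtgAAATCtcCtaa
Tmsb4x: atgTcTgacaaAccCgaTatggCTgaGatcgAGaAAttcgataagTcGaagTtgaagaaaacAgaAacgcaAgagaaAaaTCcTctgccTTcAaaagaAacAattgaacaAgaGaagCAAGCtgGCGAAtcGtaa
The differences are spread along the whole coding sequence. The longest stretch of identical bases in the transcripts of both was 10 bases, and no 50-base window of Tmsb4x occurred in a transcript of another gene.

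Library totals ran from 12238428 to 31435787 reads, recovered from the normalized values, and Het1 was the deepest. Across genes, which are not independent replicates, log2 values had r of 0.829 to 0.837 among the Ko libraries. Within the Het libraries r was 0.790 for Het1 and Het2, 0.787 for Het1 and Het3 and 0.781 for Het2 and Het3, while Het1 had r of 0.801 to 0.815 with the Ko libraries. Of the targeted gene, the libraries labelled Ko held more RNA, not less. Ikzf1 was at 301, 187 and 273 normalized counts in the Het libraries, against 1572, 1463 and 1717 in those labelled Ko (log2 fold change 2.66 ± 0.30, SE; limma adjusted p = 0.0105, and 3.16e-14 to 0.0621 over 16 alternatives, the last without Het3). The deleted part of the gene is not given in the labels, so every direction below is between libraries as labelled. All 14 tuft cell markers had reads in every library. Together they took 0.679% to 0.959% of reads in Het and 1.19% to 1.43% in Ko libraries. Without Rgs13, which was left out after its values were seen, they took 0.499% to 0.763% and 0.788% to 0.876%. By gene, Rgs13, Ptgs1 and Ltc4s were higher in every Ko library, and the groups of all other tuft cell markers overlapped. Limma called Rgs13 (adjusted p = 0.00868) and Ptgs1 (adjusted p = 0.0264) higher. The means of Ptgs1 were 3813 normalized counts in Het and 9203 in Ko libraries. Nothing in the labels states that the libraries came from separate animals, so spreads may be in part technical.

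Among the 9 genes, Tmsb10 had by far the clearest difference. It stood at 8480, 9718 and 9289 normalized counts in the Het libraries, against 21271, 22935 and 22254 in those labelled Ko. The lowest Ko library lay above the highest Het library with a wide gap. The means were 9162 ± 629 and 22153 ± 837 (SD, n = 3 each), a 2.42-fold difference, and the log2 fold change was 1.28 ± 0.11 (SE, on the log2(value + 1) scale). Behind it were 35289 Het and 58349 Ko reads.

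An absolute log2 fold change at least as large as that of Tmsb10 was found in 27.2% of the 19416 tested genes. Its spread within groups was 4.73% of its mean, where the median over the 3269 genes with a mean of at least 1000 normalized counts was 18.1%. A gene chosen for a clear difference is also chosen for a small spread, so nothing is read from that spread. In a fit across all tested genes (limma, Benjamini-Hochberg adjusted p under 0.05), Tmsb10 was the 1 member called higher in libraries labelled Ko, where 0.288% of all genes were called higher and 0.525% lower; the other 8 were not called. EdgeR and DESeq2 on the recovered reads also called Tmsb10 and no other member, against 0.386% and 6.93% of all genes. Since this contrast chose the gene, nothing is read from these calls. Without Het3 the fit called no gene at all, Tmsb10 included, while its log2 fold change was 1.29 there.

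Copies of Tmsb10 elsewhere in the genome were examined because reads could be shared with them. Of the 50-base windows of its transcript, 43.5% also occur in transcripts of 5 other annotated loci. Among these, Gm9844 and Gm3788 shared the most windows, 213 and 66 of 641. Gm9844 was at 71.6 ± 21.7 normalized counts in Het libraries, against 171 ± 34.2 in Ko, and Gm3788 at 72.7 ± 9.47 and 166 ± 14.5 (SD, n = 3 each). The pair were 2.39-fold and 2.28-fold higher in libraries labelled Ko. Their sum was 1.30% to 1.94% of the Tmsb10 count in each library.

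Tmsb4x, the main thymosin of most tissues, did not follow Tmsb10. It was at 117513, 147465 and 158734 normalized counts in the Het libraries, against 123224, 129981 and 107646 in those labelled Ko. Het1 lay among the Ko values, so the groups overlapped. The means were 141237 ± 21304 and 120284 ± 11454 (SD, n = 3 each), and the log2 fold change was -0.22 ± 0.12 (SE), from -0.35 without Het1 to -0.13 without Het3.

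**Figure D1:**
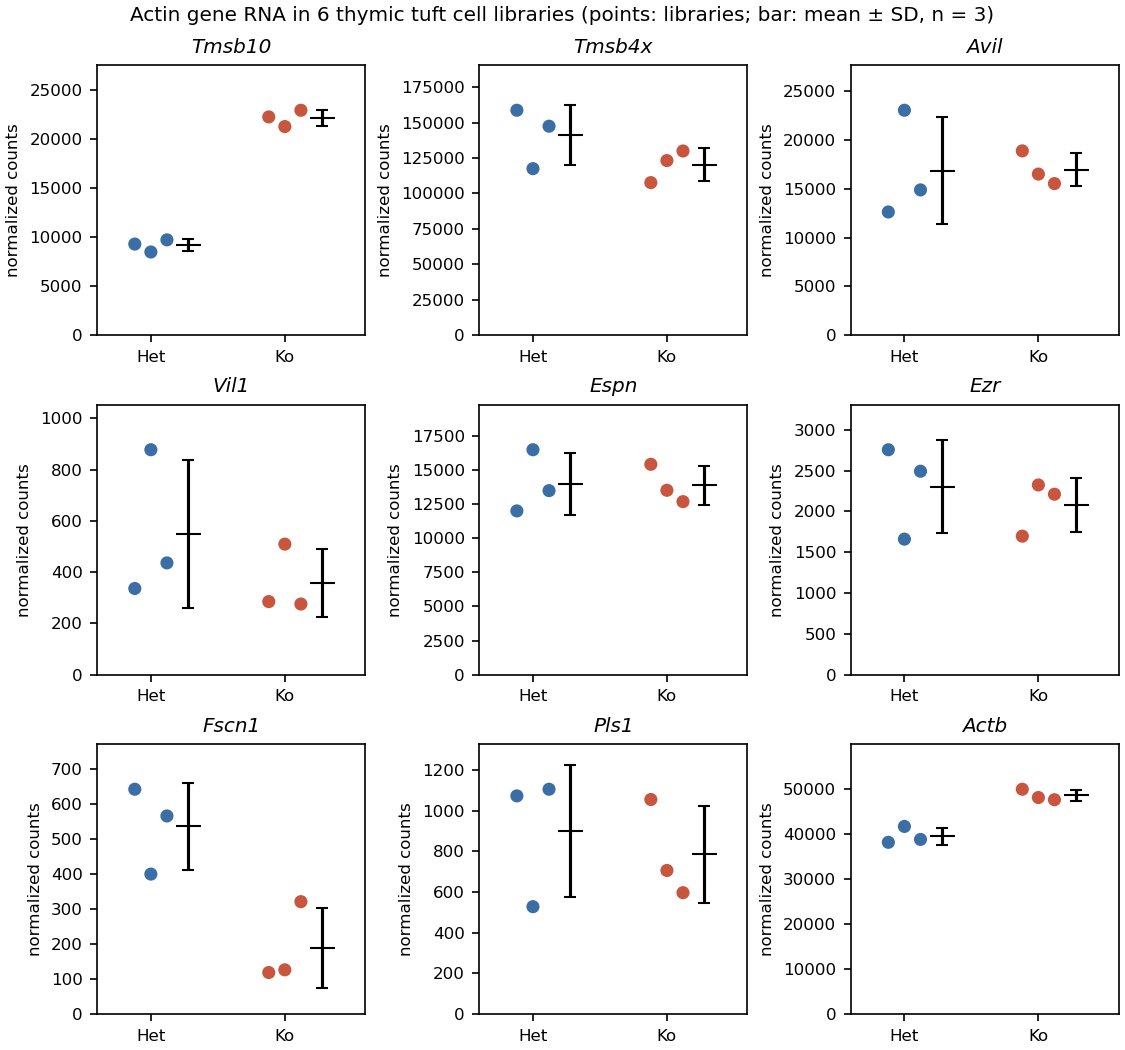
Normalized counts (y axis, linear from 0, scaled per gene) of the 9 genes in 3 Het and 3 Ko libraries (points), with the mean ± SD of each group. Tmsb10 and Actb are higher in all 3 Ko libraries, Fscn1 is lower in all 3, and the groups of the other 6 genes overlap.

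The balance within the thymosin pair differed between the groups while their total did not separate them. Tmsb10 made up 6.73%, 6.18% and 5.53% of the summed normalized counts of the pair in the Het libraries. In those labelled Ko it made up 14.7%, 15.0% and 17.1%. The pair summed to 150400 ± 21820 in Het libraries, against 142437 ± 11645 in Ko (± SD, n = 3 each). Each Het library thus held 13.9 to 17.1 Tmsb4x counts per Tmsb10 count, and each Ko library 4.84 to 5.79. These ratios use the counts that chose Tmsb10 and carry no test.

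**Figure D2:**
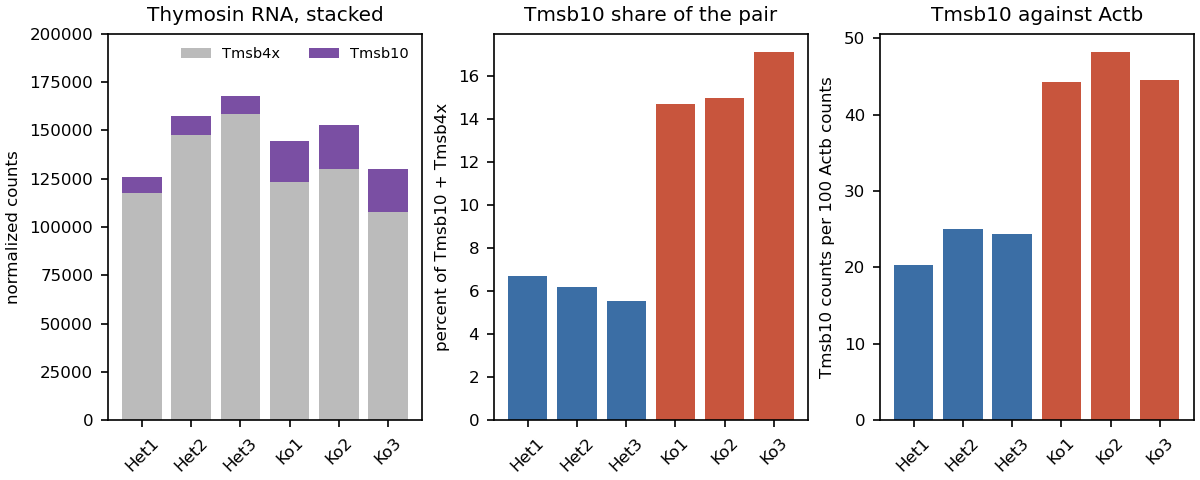
Left, normalized counts of Tmsb4x (grey) and Tmsb10 (purple) stacked per library; middle, Tmsb10 as a percent of the pair; right, Tmsb10 counts per 100 Actb counts. Het libraries are blue and Ko libraries red in the middle and right panels; the stacked totals of the groups overlap, while the Tmsb10 share is 5.53% to 6.73% in Het and 14.7% to 17.1% in Ko libraries.

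Actb, which encodes beta-actin, was slightly higher in all libraries labelled Ko. It was at 41688, 38800 and 38161 normalized counts in the Het libraries, against 48105, 47617 and 49946 in those labelled Ko. The groups did not overlap, although the gap was small. The means were 39550 ± 1879 and 48556 ± 1228 (SD, n = 3 each), a 1.23-fold difference with a log2 fold change of 0.30 ± 0.09 (SE). Its sign was positive under all 16 alternatives, from 0.21 with TMM scaling to 0.47 with quantile scaling.

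The gain of Tmsb10 was larger than that of Actb. There were 20.3, 25.0 and 24.3 Tmsb10 counts per 100 Actb counts in the Het libraries, against 44.2, 48.2 and 44.6 in those labelled Ko. Actg1, which encodes the other cytoplasmic actin, stood at 3037 ± 471 in Het libraries, against 3455 ± 302 in Ko (± SD, n = 3 each; limma adjusted p = 0.704). Actb made up 91.6% to 94.2% of the sum of both in every library, and that share overlapped between groups. Coding sequences of these actin genes were 88.7% identical, with a shared run of 62 bases. In all, 14.2% of 50-base windows of Actb occur in another gene's transcripts, so some reads may have been shared. Of its 1871 windows, Lrrc58 shared 179, Gm15725 126 and Actg1 30. Lrrc58 was at 474 to 741 normalized counts over the 6 libraries, and Gm15725 at 0 in all.

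Avil kept a high level in both groups. It was at 23037, 14878 and 12616 normalized counts in the Het libraries, against 16499, 15526 and 18873 in those labelled Ko. The Het values bracketed all Ko values. The means were 16844 ± 5481 and 16966 ± 1722 (SD, n = 3 each) and the log2 fold change was 0.05 ± 0.20 (SE), 0.30 without Het1 and negative under TMM scaling and without Het2, Het3 or Ko3. Some 4.02% of the 50-base windows of its transcript also occur in transcripts of Tsfm, and no source used here says whether the counting used strand.

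Vil1, the villin of gut brush borders, was low and varied most between libraries labelled Het. It was at 877, 436 and 336 normalized counts in the Het libraries, against 509, 276 and 285 in those labelled Ko. The groups overlapped, and Het1 alone lay far above the rest. The log2 fold change was -0.56 ± 0.45 (SE) with all libraries and -0.16 without Het1. Avil made up 96.3% to 98.5% of the sum of Avil and Vil1 in every library. Coding sequences of Avil and Vil1 were 65.4% identical, with no shared run longer than 32 bases.

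Espn and Ezr, for the bundler espin and the membrane linker ezrin, differed little. Espn was at 16472, 13477 and 11992 normalized counts in the Het libraries, against 13504, 12671 and 15405 in those labelled Ko. Its means were 13980 ± 2282 and 13860 ± 1402 (SD, n = 3 each), the closest to equal of the 9 genes on the log2 scale; the log2 fold change was -0.00 ± 0.15 (SE) and its sign turned positive in 6 of 16 alternatives, equal library totals, quantile scaling and edgeR among them. Ezr was at 1660, 2491 and 2754 in the Het libraries, against 2323, 2210 and 1696 in those labelled Ko. Its groups overlapped as well, with a log2 fold change of -0.13 ± 0.24 (SE) that was -0.35 without Het1, 0.02 without Het3 and 0.01 without Ko3.

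Pls1, for the microvillus cross-linker plastin 1, showed no separation either. It was at 528, 1105 and 1072 normalized counts in the Het libraries, against 706, 597 and 1054 in those labelled Ko. Each group had low and high libraries. The log2 fold change was -0.16 ± 0.36 (SE), and -0.51 without Het1 and 0.02 without Het2.

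Fscn1 went the other way from Tmsb10 and Actb. The gene encodes fascin, a filament bundler known from filopodia and from mature dendritic cells. It was at 400, 566 and 642 normalized counts in the Het libraries, against 127, 321 and 119 in those labelled Ko. Every Ko library lay below every Het library, with Ko2 closest to the Het range. The means were 536 ± 124 and 189 ± 115 (SD, n = 3 each), 2.84-fold lower in libraries labelled Ko, with a log2 fold change of -1.63 ± 0.49 (SE). It rested on 1957 and 516 reads, and leaving out 1 library gave -2.09 to -1.38. Tmsb10, Actb and Fscn1 were the 3 of 9 genes whose groups did not overlap, 2 higher and 1 lower in libraries labelled Ko. Of all tested genes, 18.4% had groups that did not overlap, 8.57% higher and 9.86% lower.

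Markers of other cell types that the sort could hold were summed beside Fscn1. The 12 markers of dendritic cells and macrophages took 0.0271% to 0.307% of reads in Het and 0.00791% to 0.0175% in Ko libraries. In Het libraries most of this was Lyz2, at 53300, 3666 and 8729 normalized counts, against 497, 2900 and 1130 in those labelled Ko. Without Lyz2, left out after its values were seen, the list took 0.00369% to 0.00697% and 0.00117% to 0.00503%, and the groups overlapped. Adgre1, a macrophage marker, was lower in every Ko library, with 13, 272 and 35 reads in Het against 4, 2 and 0 in Ko. Csf1r, another macrophage marker, had 8, 232 and 41 reads in the Het libraries. Lyz2 did not follow these markers across the Het libraries. Het1 had the most Lyz2 and the fewest Adgre1 and Csf1r reads of the Het libraries, and Het2 the reverse. Flt3 was higher in every Ko library, at means of 7.99 and 10.9 normalized counts, too low to be tested. The other 9 markers overlapped. Reads in every library were found for 8 of the 12. Markers of the Aire stage of medullary epithelium, 7 of 8 with reads in every library, took 0.166% to 0.506% and 0.114% to 0.173%, with overlapping groups. Most of this was H2-Aa, with means of 36479 and 17455 normalized counts, and Ubd, with 28171 and 5494. Aire itself was at 1113 ± 839 and 197 ± 213 (SD, n = 3 each). Only Ubd and Cd80 were lower in every Ko library, and the others overlapped. No marker of either list was at 0 in all libraries. Their part in the difference of Fscn1 was not tested, and in bulk libraries fewer cells of a type and less RNA per cell cannot be told apart. The 7 markers of microfold epithelial cells took 0.130% to 0.231% in Het and 0.0708% to 0.0814% in Ko libraries. They did not move together. Limma called Gp2 and Pglyrp1 lower, with means of 13495 and 8536 in Het libraries, against 801 and 1707 in Ko. Spib was higher in every Ko library (4626 and 6264), and Tnfaip2, Ccl20, Sox8 and Marcksl1 overlapped. The 12 thymocyte markers took at most 0.00353% of reads in any library, with overlapping groups. The 8 secretory markers took more in every Het library, 0.757% to 1.03%, against 0.0463% to 0.596% in Ko, highest in Ko2. Limma called 3 of them lower, Fcgbp, Muc13 and Reg3g (means of 128750 and 10170 for Reg3g). Muc5b was also lower in every Ko library. Bpifa1 had the higher mean in Ko libraries (10577 in Het and 29977 in Ko), with 74210 in Ko2. Its groups overlapped, as did those of Scgb1a1, Scgb3a1 and Tff2. B cell markers took more in every Ko library (0.0131% to 0.0196% and 0.0297% to 0.0337%), neuroendocrine markers less. Sums of immature medullary, gut and liver, ciliated, keratinocyte, muscle and ionocyte markers overlapped, though not every marker did. Of the ciliated markers, Foxj1, Dynlrb2, Tekt1, Ccdc153 and Spag6l were lower in every Ko library, and Dnah5 and Mcidas overlapped. Of the immature ones, Krt14, Itgb4 and Pdpn were higher in every Ko library, and limma called Ly6a lower (adjusted p = 0.0306). Apoa1, Alb, Ivl, Ttn, Foxi1 and Atp6v0d2 were also lower in every Ko library, and Myog higher. The rest of these lists overlapped. The part of these cells was not tested.

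**Figure D3:**
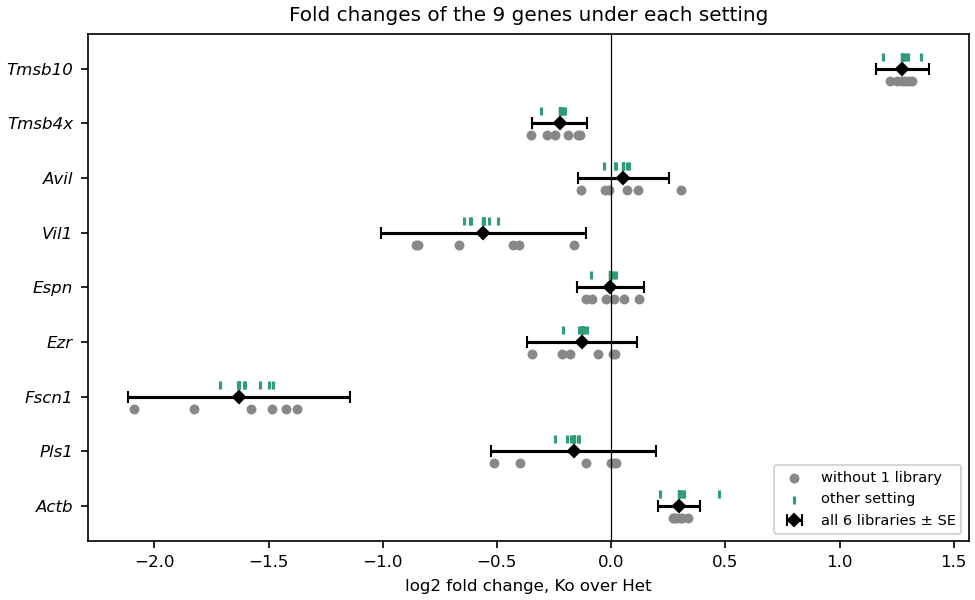
Log2 fold change of Ko over Het for the 9 genes (x axis) from all 6 libraries (diamond, ± SE), without 1 library (grey points) and under other scalings, pseudocounts, filters, tests and a block (green ticks). Tmsb10, Actb, Tmsb4x, Vil1 and Fscn1 keep their sign in all 16 alternatives, and Avil, Espn, Ezr and Pls1 do not.

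Levels of the 9 genes were set side by side per exon length. In Het libraries Tmsb4x came first, with 103018 ± 15539 normalized counts per kilobase of all exons (SD, n = 3), and Actb second, with 14763 ± 701. Tmsb10 (7181 ± 493) and Avil (4957 ± 1613) followed with overlapping libraries. Espn (1690 ± 276) and Ezr (700 ± 174) lay below, each apart from its neighbours on this length. Pls1 (232 ± 83.3), Fscn1 (178 ± 41.1) and Vil1 (155 ± 81.1) came last and overlapped.

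In Ko libraries Tmsb10 reached the level of Actb, at 17361 ± 656 against 18125 ± 459 counts per kilobase (SD, n = 3), with overlapping libraries. Among 19390 genes with a length, Tmsb10 ranked 146 to 162 in Het and 52 to 57 in Ko libraries, and Tmsb4x ranked 7 to 10 in all 6. Fscn1 took the last place in Ko libraries, at 62.7 ± 38.1, overlapping with Vil1 at 100.4 ± 37.3. With the length of 1 transcript per gene, an alternative chosen after seeing the data, Tmsb10 lay above Actb in every Ko library (32106 ± 1213 against 25290 ± 640 per kilobase), so that order depends on the gene model. In Het libraries that length put Tmsb10 above Avil in every library and made Avil and Espn overlap. In Ko libraries it made Pls1 and Vil1 overlap. In Het libraries Actb was above Tmsb10 with either length.

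Other genes of actin regulation were counted in 9 lists of 180 genes, 164 of them tested, with the members left out. As many had a positive as a negative log2 fold change, 82 each, with a median of 0.01 against -0.05 over all tested genes. Limma called 1 higher and 1 lower in libraries labelled Ko, or 1.22% of the 164 against 0.814% of all genes. Groups did not overlap for 22.0% against 18.4%. DESeq2 called 14 of the 156 it tested, or 8.97% against 6.93% of all genes, and edgeR 1, or 0.610% against 0.386%. An unadjusted limma p under 0.05 was found for 30, or 18.3% against 13.6% of all genes. These shares of all genes are the background for the counts of each list below. Some genes, Calml4, Acta2 and Actg2 among them, are in more than 1 list and are counted in each.

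The gene called higher was Cd44, which encodes a hyaluronan receptor that binds ezrin and its relatives. It rose from 4671, 2861 and 3604 normalized counts in the Het libraries to 9873, 10721 and 10686 in those labelled Ko. The log2 fold change was 1.52 ± 0.18 (SE), with a limma adjusted p of 0.0121. Leaving out Het3 ended the call (adjusted p = 0.0916; 1.58e-10 to 0.0916 over 16 alternatives). The gene called lower was Fhl1, a four-and-a-half LIM domain gene and an SRF target of muscle. It fell from 171, 1201 and 227 to 3.09, 13.5 and 7.16, from 2154 reads in all to 21. Its log2 fold change of -5.52 ± 1.02 (SE) had a limma adjusted p of 0.0457, but 9 of 16 alternatives lost the call, those without any 1 library among them (adjusted p 1.60e-10 to 0.232 over the 16).

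No other relative of the members passed the limma test, which called only 2.4% of 2-fold differences in simulated data. Among actin monomer proteins (15 tested, 9 positive, 6 negative, median 0.07), limma called 0, edgeR 0 and DESeq2 1, and 2 had an unadjusted p under 0.05. Ptma, a small acidic protein gene whose product is unrelated to beta-thymosins despite its name, prothymosin alpha, was at 8084 ± 170 and 9950 ± 645 (SD, n = 3 each; limma adjusted p = 0.329). Tmsb15a had 258 Het and 2 Ko reads, nearly all from Het2 and Het3 (limma adjusted p = 0.402, DESeq2 adjusted p = 0.0301, range over alternatives 0.0301 to 0.698). The metastasis suppressor-like gene Mtss1l was at 78.0 ± 33.7 and 209 ± 53.1 (0.330). The actins (8 tested, 6 positive, median 0.75) had 0 calls by limma, edgeR and DESeq2 and 1 unadjusted p under 0.05. Acta2, the smooth muscle actin, was at 327 ± 105 and 849 ± 713 (0.438), with 1662 in Ko2. Actg2 was at 0 to 5.03 in Het and 4.12 to 44.5 in Ko libraries (0.368). Actl6a, an actin-like subunit of chromatin complexes, was at 653 ± 306 and 276 ± 161 (0.333).

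The villin and gelsolin relatives (6 tested, 3 positive, 3 negative, median -0.24) had 0 calls by limma and edgeR, 1 by DESeq2 and 1 unadjusted p under 0.05. Capg, the capping relative, was at 4137 ± 685 in Het libraries, against 2311 ± 581 in Ko (± SD, n = 3 each; limma adjusted p = 0.131, DESeq2 adjusted p = 0.0156, range over alternatives 0.0156 to 0.360), with groups that did not overlap. Gsn, for gelsolin, was at 2779 ± 348 and 1721 ± 1012 (0.368), and Scin, for adseverin, at 230 ± 79.4 and 154 ± 51.3 (0.693).

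None of the bundling and length genes of microvilli passed limma's test. Of 16 tested, 13 had a negative and 3 a positive log2 fold change, with a median of -0.51; limma and edgeR called 0, DESeq2 2, and 3 had an unadjusted p under 0.05. Calml4, which is also in the next list and described there, was among the positive genes and the DESeq2 calls. Groups did not overlap for 31.25% of this list against 18.4% of all tested genes, 1 gene higher and 4 lower. The plastin relatives of Pls1 both lay lower in every Ko library. Lcp1, the plastin of blood cells, was at 5901, 4729 and 3826 normalized counts in the Het libraries, against 3136, 3064 and 3186 in those labelled Ko (limma adjusted p = 0.187, DESeq2 adjusted p = 0.0495, range over alternatives 0.0495 to 0.377). Pls3 was at 2192 ± 373 and 1323 ± 480 (SD, n = 3 each; limma adjusted p = 0.263).

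Of the adhesion complex between microvillus tips and the brush border myosins, 16 were tested, with 6 positive and 10 negative fold changes and a median of -0.13. Limma and edgeR called 0, DESeq2 1, and 2 had an unadjusted p under 0.05. Calml4, a light chain of that complex, was at 3998, 7054 and 4323 normalized counts in the Het libraries, against 8758, 10931 and 10941 in those labelled Ko. Its groups did not overlap (log2 fold change 1.03 ± 0.22, SE; limma adjusted p = 0.0644), and 3 of 16 alternatives called it (adjusted p 8.14e-04 to 0.252). Its partner Cdhr5, a protocadherin of microvillus tips, was at 2297 ± 442 and 3440 ± 275 (SD, n = 3 each; 0.205), without overlap. Tmigd1 was at 240 ± 159 and 75.9 ± 81.1 (0.450).

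Apart from Cd44, the list of ezrin relatives, kinases and partners (20 tested, 10 positive, 10 negative, median 0.03) stayed uncalled by limma. DESeq2 called 2 of its genes, and 3 had an unadjusted p under 0.05. The ezrin paralogs Rdx and Msn were at 1049 ± 266 and 3128 ± 221 in Het libraries, against 1134 ± 299 and 3688 ± 1542 in Ko (± SD, n = 3 each; limma adjusted p = 0.918 and 0.841), with signs that changed when some libraries were left out. Spn, which encodes the leukocyte sialoprotein CD43, had 418 Het and 8 Ko reads (limma adjusted p = 0.211, DESeq2 adjusted p = 0.00555, range over alternatives 0.00555 to 0.493). Rock2 was at 2058 ± 508 and 2989 ± 220 (limma adjusted p = 0.303), and Nf2, for merlin, at 413 ± 121 and 593 ± 107 (0.543).

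Filament-nucleating genes (Arp2/3, WAVE, WASP and formins) were split 19 positive to 20 negative among 39 tested, with a median of -0.00. Limma and edgeR called 0, DESeq2 3, and 7 had an unadjusted p under 0.05. Spire1, a nucleator, was at 48.6 ± 27.4 in Het libraries, against 362 ± 57.2 in Ko (SD, n = 3 each; limma adjusted p = 0.0786), the formin Fmnl2 at 1005 ± 326 and 393 ± 51.8 (0.123), and the formin Inf2 at 291 ± 62.9 and 87.5 ± 23.2 (0.176). These were the 3 that DESeq2 called, with adjusted p of 4.62e-04 for Spire1, 0.00820 for Fmnl2 and 0.0452 for Inf2. Those were the lowest over their alternatives, and the highest were 0.224, 0.354 and 0.424. Capping, tropomyosin and terminal web genes (29 tested, 15 positive, 14 negative, median 0.02) had 0 calls by limma, edgeR and DESeq2, with 6 unadjusted p under 0.05. The myosin light chain gene Myl6 was at 12023 ± 357 and 15900 ± 1926 (0.196), Sptbn1, for a spectrin, at 2783 ± 204 and 3925 ± 495 (0.248), and Myl12b at 1763 ± 153 and 1190 ± 141 (0.276).

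Among SRF, its MRTF coactivators and textbook targets, 16 of 22 log2 fold changes were positive and 6 negative, with a median of 0.35. SRF with MRTF is the factor that reads the pool of free actin subunits, and Actb is one of its classic targets. Apart from Fhl1 none was called by limma; edgeR called 0 and DESeq2 5, and 6 had an unadjusted p under 0.05. Groups did not overlap for 8 of the 22, or 36.4% against 18.4% of all tested genes, 7 of them higher and 1 lower (8.57% and 9.86% of all). This was the highest share among the 9 lists, and the others ran from 12.5% to 31.25%. The lists were chosen with earlier results of these data known, so nothing is read from this order. Zyx, for the adhesion protein zyxin, was at 902 ± 116 and 1949 ± 622, Vcl, for vinculin, at 229 ± 56.5 and 724 ± 293, and Ccn1 at 902 ± 670 and 2716 ± 819 (SD, n = 3 each; limma adjusted p = 0.111, 0.112 and 0.143). DESeq2 called these, with adjusted p of 0.00542 for Zyx and Vcl and 0.0105 for Ccn1, the lowest over their alternatives, where the highest were 0.307, 0.330 and 0.320. The 9 markers of fibroblasts and endothelium, cells rich in such targets, took 0.0120% to 0.0162% of reads in Het and 0.0170% to 0.0726% in Ko libraries. The highest value was that of Ko2, where Dcn alone had 8851 reads, and Ko1 and Ko3 were at 0.0206% and 0.0170%. By gene, only Cdh5 was higher in every Ko library, and the groups of all other markers of this list overlapped. The part of such cells in these values was not tested.

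**Figure D4:**
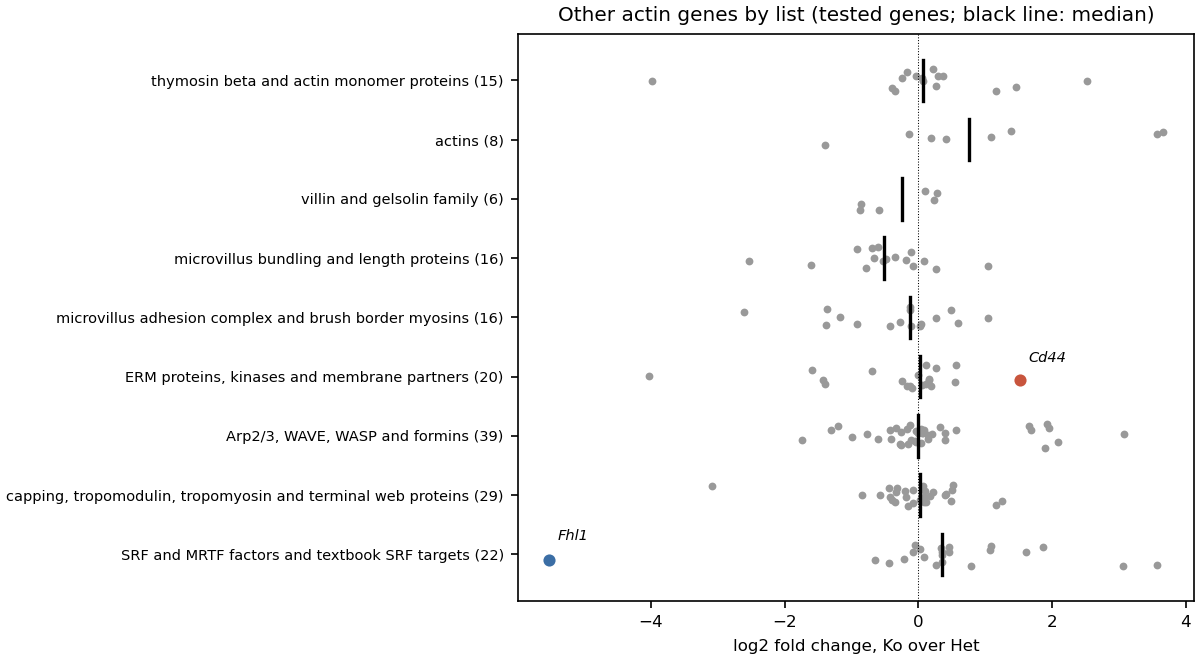
Log2 fold change of Ko over Het (x axis) for each tested gene (points) of the 9 actin lists, with the number tested in brackets and the median as a black line; vertical scatter within a list has no meaning. Cd44 (red) and Fhl1 (blue) are the genes that limma called, and list medians lie between -0.51 and 0.75.

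The profile of Tmsb10 over the 6 libraries was compared with those of 12315 other genes with a conventional symbol and a mean of at least 50 normalized counts. Likeness was the root mean square difference of log2(value + 1) after each gene's own mean was subtracted. The closest were Cmtr1 (0.10), Gadl1 (0.12), Tbc1d16 (0.13), Jag2 (0.13) and Serf1 (0.15). Cmtr1, which encodes an mRNA cap methyltransferase, was at 107, 134 and 101 normalized counts in the Het libraries, against 255, 288 and 288 in those labelled Ko. Jag2, a Notch ligand gene, was at 800 ± 106 and 1981 ± 38.0 (SD, n = 3 each). These genes were picked for this pattern, so their differences carry no test.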

How the data were processed

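Sorted L1CAM+ cells were lysed in buffer for SMART-seq, per the labels' protocols. STAR 2.7.9a, GRCm39 and DESeq2 are named by the submitters' processing notes; for the read counter, annotation and strand setting, nothing is given in the sources used here. The authors deposited a signal for each gene and library: its read count scaled by a size factor of that library. A second deposited table, the authors' own comparison, has log2 fold changes, a score headed stat and p-values, per the file headers. None of its values is quoted. Every value above 0 (100%) was a whole multiple of the smallest in its column, within 0.01 reads, which gave whole reads.

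Genes with a mean of at least 10 entered limma 3.58.1 under R 4.3.3, as log2(value + 1) (trend, two-sided, genotype as the only term, adjusted over 19416 genes, called at 0.05). The fold changes understate changes of low genes. EdgeR 4.0.16 (quasi-likelihood) and DESeq2 1.42.0 were run on recovered reads. Limma was tested on simulated data. It called 2.4% of 250 simulated 2-fold differences, 44.4% at 4-fold, 64.8% at 8-fold and 78.4% at 16-fold. Without a simulated difference, 0.0427% of genes were called. A gene left uncalled was therefore not shown to be unchanged. Symbols came from a gene name table (55144 of 55471 matched). Lengths, coding sequences and shared windows came from GENCODE vM21 (GRCm38), while the notes name GRCm39, so positions in the genome are left out. Where several genes share a symbol, the lowest identifier was used. The members and gene lists were chosen with earlier results of these data known. Named were the members, Ikzf1, called list genes, up to 3 others per list with the smallest p in lists with at most 1 call, fixed paralogs and the 5 genes most like Tmsb10. The copies Gm9844 and Gm3788 and every single cell type marker were named after their values were seen.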

Additional observations from a re-analysis of the deposited data

How the results depend on the processing

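The log2 fold change of Tmsb10 kept its sign in all 16 alternatives; it was 1.19 with TMM scaling, 1.36 with quantile scaling and 1.22 to 1.32 without 1 library. The median of all tested genes was -0.05, and -0.13 and 0.08 under these scalings. The list genes called by limma, 2 in all, were 1 with quantile scaling, 1 with edgeR, 14 with DESeq2, 3 with no filter on low values, 3 with a mean of at least 50, 0 to 1 without 1 library and 1 with a replicate block by column number. The 0 came without Het3, where limma called no gene of any kind. Column numbers did not pair the libraries (correlation of deviations 0.02, 0.02 and -0.02 for the same numbers), and the block left the Tmsb10 value at 1.28. Over all genes limma called 56 higher and 102 lower, and 37 and 127 with TMM scaling. Without 1 library the fold change of Rdx ran from -0.10 to 0.35, negative without Het3, Ko2 or Ko3, and that of Msn from -0.16 to 0.36, negative without Ko3. With 3 libraries a group, small differences of Vil1, Pls1 and Ezr were not resolvable from the spread between libraries.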
